A study of Mus musculus with 22 samples.

Results

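Fully grown germinal vesicle (GV) oocytes of *Dicer* SOM/SOM females were compared with those of wild-type females, 3 samples of each genotype as given by the sample labels, which makes 6 of the 22 RNA-seq samples in the series. The series also holds oocytes that lack the MT element of *Dicer* (ΔMT) in the same single-end run, and a paired-end run of oocytes that carry *Dicer* SOM alleles together with a catalytically mutated *Mili* (DAH) allele. The SOM allele lacks introns 2 to 6 of *Dicer*, and with them the retrotransposon-derived promoter in intron 6 that drives the short oocyte isoform, and it encodes full-length Dicer with an HA tag. It goes back to 1 embryonic stem cell clone, and the mutation is present in the whole body rather than in oocytes alone. According to the methods, oocytes came from superovulated or non-stimulated C57Bl/6 mice, 12 to 16 weeks old, and each sample was a pool. The SOM line was crossed onto the C57Bl/6 background, for a number of generations that the methods do not state. The labels of the single-end run state neither age nor batch, while those of the paired-end run give ages of 10 to 40 weeks. The labels do not say whether the samples of a genotype came from separate animals, so p-values measure the spread between sequenced samples only. In the main fit that spread was estimated over 10 samples, which include the *Dicer* ΔMT/ΔMT oocytes, and not over the 6 compared samples alone. A fit of wild type and *Dicer* SOM/SOM alone called 2449 genes higher and 2138 lower, against 3351 and 3276 in the main fit.

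Dicer cuts double-stranded RNA into small interfering RNAs (siRNAs) and the hairpin precursors of microRNAs into mature microRNAs, and Argonaute proteins use both as guides. Mouse oocytes differ from other mammalian cells in that they express an N-terminally shortened Dicer, Dicer-O, which processes long double-stranded RNA efficiently, so that siRNAs derived from pseudogenes and antisense transcripts repress protein-coding genes. MicroRNAs have little activity at this stage. A GV oocyte is arrested in prophase of meiosis I and stores the maternal mRNAs on which meiosis and early development depend.

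The samples of wild type held 60660215 to 69310021 counts. *Dicer* SOM/SOM replicates 1 and 2 held 47741738 and 63770201, and replicate 3 held 6468380. With the floor taken as 3 counts per library, the lowest detectable level was 0.435 CPM (read counts scaled to a common library size) in replicate 3 and at most 0.0517 CPM in wild type. Genes with at least 10 counts numbered 15096 in replicate 3 and 21280 to 22558 in the other 5 samples, but 13938 to 14584 in those 5 after thinning to the depth of replicate 3. Mitochondrial transcripts made up 3.56 to 4.14% of the counts in wild type and 2.55, 3.11 and 4.0% in *Dicer* SOM/SOM replicates 1 to 3. *Gm42418*, an annotation that overlaps ribosomal RNA, was at 5236, 5825 and 5655 CPM in wild type and at 12876, 4798 and 17432 CPM in *Dicer* SOM/SOM, so replicates 1 and 3 lay above wild type and replicate 2 below it. Its call as higher (adjusted p = 0.0390, edgeR's quasi-likelihood test) was lost without replicate 3 (adjusted p = 0.156). Results that depended on replicate 3 are given with and without it.

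The label of the samples as oocytes was compared with markers. All 12 oocyte markers, among them *Gdf9*, *Bmp15*, *Zp3* and *Nlrp5*, were tested, and their summed level was 13980 to 15817 CPM in wild type and 14235 to 15185 CPM in *Dicer* SOM/SOM. *Ddx4* was the only one called, higher in *Dicer* SOM/SOM. Of 16 granulosa and cumulus cell markers, 14 were tested, with summed levels of 145 to 158 CPM in wild type and 111 to 148 CPM in *Dicer* SOM/SOM, and 2 of the list had no count in any *Dicer* SOM/SOM sample. Summed markers of myeloid cells were at 20.8 to 29.0 CPM in wild type and 131 to 192 CPM in *Dicer* SOM/SOM. Most of that sum was *C1qb*, with a part from *Cd68*, while 2 of the 8 myeloid markers had no count in any sample of either genotype and *Csf1r* and *Lyz2* were not called. Markers of B and T cells went the other way, from 192 to 202 CPM in wild type to 83.8 to 122 CPM, which came from *Ighg1* and *Ms4a1*. Fewer cells of a type and less RNA per cell cannot be told apart in such samples, and the part of other cells in the results was not tested.

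*Dicer1*, the targeted gene (chromosome 12, 104687742 to 104751952, minus strand, GRCm38), was at 1003, 1057 and 1001 CPM in wild-type replicates 1 to 3 and at 52.9, 54.9 and 41.9 CPM in *Dicer* SOM/SOM. The genotypes therefore lay far apart in every sample. On the log2 scale the difference came to −4.34 ± 0.13 (standard error) with an adjusted p = 3.67e-08 by edgeR, while an exact permutation test of 3 against 3 samples gave a two-sided p = 0.1, the smallest it can give. Counts cover the whole gene, so Dicer-O and full-length transcripts were not separated. The primers designed by the study for its qPCR show where the isoforms part: the forward primers named for the alternative exons AltE1 and AltE2 each matched 1 of the 6 annotated *Dicer1* transcripts, while the reverse primer in exon 7 matched 3.
AltE1 forward: ctctgccttcaggttctgacttcc
AltE2 forward: actgctttggtgatcaacagc
E7 reverse: gaagtgggctgtatgagagattgc

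Of the other 14 tested genes for Dicer partners, the microRNA processing complex and Argonautes, 3 were called. *Tsnax*, whose product is a subunit of the C3PO nuclease that removes passenger strands of siRNAs, was at 99.2, 90.9 and 108 CPM in wild type and at 299, 317 and 183 CPM in *Dicer* SOM/SOM (log2 fold change 1.43, standard error 0.18, adjusted p = 1.52e-04), without overlap. *Ago1*, an Argonaute, changed by 0.61 and *Dgcr8*, the RNA-binding partner of Drosha, by −0.43, and both calls were lost in several alternatives, such as without wild-type replicate 3 (adjusted p = 0.0671 and 0.0667, edgeR). The whole list held 2 genes higher (13.3%) and 2 lower (13.3%) of 15, near the shares over all tested genes (14.5 and 14.2%).

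Across all 23151 tested genes, 28.6% were called at an adjusted p under 0.05, 14.5% higher (3351 genes) and 14.2% lower (3276 genes) in *Dicer* SOM/SOM. The rises were larger than the falls, with a median log2 fold change of 1.36 among the genes called higher and −0.77 among those called lower. At least 4-fold changes were found for 998 genes called higher and 315 called lower. Together, the genes called higher made up 8.27% of the CPM in wild type and 16.1% in *Dicer* SOM/SOM, and those called lower 30.5% and 20.6%. Samples of the genotypes did not overlap for 41.4% of all tested genes.

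The balance between rises and falls moved with the level of the gene. Below a mean of 1 CPM, 11.0% of 7214 genes were called higher and 4.82% lower. Between 10 and 100 CPM, 15.8% were higher and 21.2% lower, and above 100 CPM, 10.6% of 2195 genes were higher and 26.7% lower. Scaling by library totals alone moved the shares above 100 CPM to 13.4 and 23.0%, and leaving out replicate 3 to 12.8 and 25.0%. Abundant maternal transcripts thus fell more often than they rose in these samples. Among the same genes, chosen by their single-end level, the paired-end run of this *Dicer* genotype called 7.06% higher and 3.69% lower. Those values were near the shares over all genes tested in that run (7.07 and 3.64%).

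**Figure D1:**
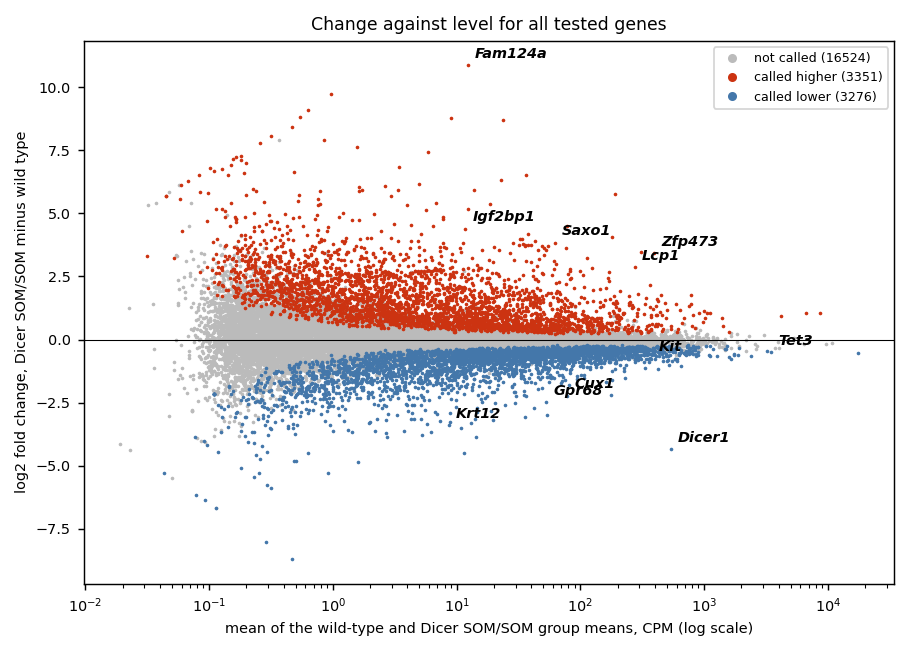
Log2 fold change of each tested gene (y axis, *Dicer* SOM/SOM minus wild type) against its mean level (x axis, CPM, log scale), with genes called higher and lower in colour. The rises reach farther from 0 than the falls, and above 100 CPM more genes were called lower (26.7%) than higher (10.6%).

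Among abundant genes, those with a mean of at least 100 CPM in 1 genotype and a symbol other than a predicted or RIKEN name, the largest rise was that of *Saxo1*, which encodes a stabilizer of axonemal microtubules. It was at 9.09, 7.81 and 7.29 CPM in wild type and at 131, 102 and 115 CPM in *Dicer* SOM/SOM (log2 fold change 3.84, standard error 0.17, adjusted p = 1.63e-07). Its antisense neighbour *Saxo1os* rose as well, by 5.93 on the log2 scale, from 0.0689 to 0.149 CPM to 6.24 to 7.12 CPM. The annotated spans of *Saxo1* and *Saxo1os* do not overlap. *Pla1a*, a phospholipase that acts on phosphatidylserine, rose from 14, 10.5 and 9.67 CPM to 139, 166 and 119 CPM (3.64, standard error 0.18). *Zfp473*, whose human counterpart takes part in processing the ends of histone mRNAs, went from 76.2, 51.3 and 73.8 CPM to 727, 886 and 559.8 CPM (3.43, standard error 0.23). *Sdhaf4*, an assembly factor of succinate dehydrogenase, rose from 16.4 to 26.0 CPM to 157 to 280.0 CPM (3.22, standard error 0.23). *Zfp473*, *Sdhaf4*, *BC034090*, *Rangap1*, *Lcp1* and *Sp140* each overlap an exon of a gene on the other strand, and counting ignored strand, so reads in such shared regions cannot be told apart.

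3 of the 10 largest rises among these abundant genes with a symbol were members of the study's list of potential siRNA targets. *Rangap1*, which activates the Ran GTPase in nuclear transport and spindle assembly, was at 16.4, 10.7 and 15.5 CPM in wild type and at 126, 129 and 83.4 CPM in *Dicer* SOM/SOM (log2 fold change 3.0, standard error 0.21, adjusted p = 3.79e-06). *Lcp1*, the actin-bundling protein L-plastin, was at 54.5 to 73.7 CPM and 462 to 524 CPM (2.87, standard error 0.15). *Sp140*, a nuclear body protein of the speckled protein family, was at 19.7 to 22.8 CPM and at 144, 144 and 145 CPM (2.73, standard error 0.11). In none of these did the genotypes overlap, which the rule for choosing them required. *C1qb*, a subunit of complement C1q that is otherwise known from macrophages, rose from 20.3, 16.8 and 24.0 CPM to 152, 121 and 157 CPM (2.81, standard error 0.15, adjusted p = 5.12e-07).

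The study's qPCR primers for *Lcp1* bear on its reading, because the forward primer also matched 1 other gene, the overlapping *Gm15628*, while the reverse primer matched *Lcp1* transcripts alone. The primers for *Optn*, an autophagy receptor and another potential siRNA target, matched no other gene. *Optn* itself rose by 1.86 on the log2 scale (standard error 0.13, adjusted p = 3.44e-06).
Lcp1 forward: atcaacagacgggctgattc
Lcp1 reverse: gatctacagagcagccttgtca
Optn forward: gagcatcttctggaccgaca
Optn reverse: cagataccacagtgttcagtcaga

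After *Dicer1*, the largest falls among abundant genes with a symbol other than a predicted name were those of *Cux1*, *Mtss1*, *Nav1* and *Glis3*. *Cux1*, a homeodomain transcription factor, was at 138, 141 and 109.6 CPM in wild type and at 30.9, 29.5 and 21.3 CPM in *Dicer* SOM/SOM (log2 fold change −2.22, standard error 0.15, adjusted p = 3.16e-06). *Mtss1*, which links membranes to actin, went from 317, 308 and 253 CPM to 73.4, 53.4 and 63.0 CPM (−2.21, standard error 0.13). *Glis3*, a Krüppel-like zinc finger factor, went from 241, 275 and 214 CPM to 56.5, 91.7 and 80.4 CPM (−1.68, standard error 0.16). *Dicer* SOM/SOM samples lay below every wild-type sample in all 3 genes, which follows from the rule for choosing them. The others were *Nav1*, a microtubule-associated protein (−1.78), *Tspan9*, a tetraspanin (−1.64), *Hectd2*, a ubiquitin ligase (−1.62), *B4galt4*, a galactosyltransferase (−1.61), *Itgb3*, the integrin beta 3 subunit (−1.56), and *Klhl9*, an adaptor of cullin ubiquitin ligases (−1.54). Of these, *B4galt4* varied most in *Dicer* SOM/SOM, with 81.5, 131 and 52.1 CPM against 261 to 289.9 CPM in wild type. *Cux1*, *Nav1*, *Hectd2* and *Klhl9* each overlap an exon of a gene on the other strand, and counting ignored strand.

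**Figure D2:**
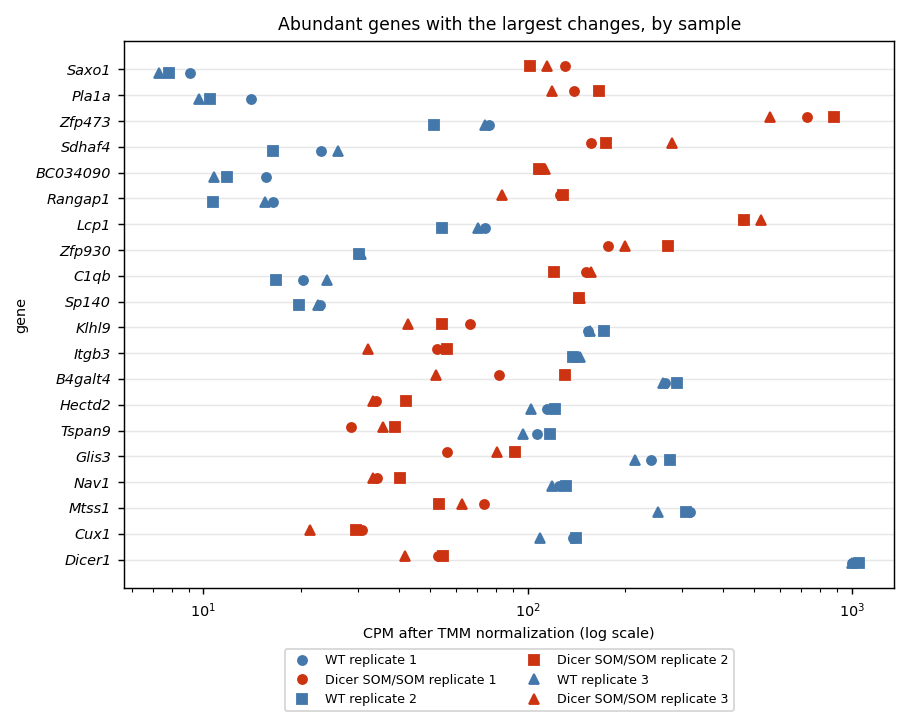
CPM (log scale) in each of the 3 wild-type and 3 *Dicer* SOM/SOM samples for the 10 largest rises and 10 largest falls among genes with a mean of at least 100 CPM in 1 genotype, leaving out predicted and RIKEN names. The genotypes do not overlap for any of them, which the rule for choosing them required, and *Dicer1* shows the largest fall, to between 41.9 and 54.9 CPM.

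Among genes with a lower level, several were almost absent from wild type. *Fam124a*, a gene of unknown function, had at most 0.0345 CPM in wild type and 22.0, 23.5 and 28.0 CPM in *Dicer* SOM/SOM, or at least 474-fold above the wild-type floor. *Bfsp1*, which encodes the lens filament protein filensin, went from 0.238, 0.0345 and 0.0491 CPM to 60.5, 49.9 and 32.1 CPM (log2 fold change 8.72, standard error 0.55). *Tstd3*, a small protein with a rhodanese domain, went from 0.416 to 0.752 CPM to 57.8, 41.3 and 36.0 CPM (6.33, standard error 0.30), and overlaps *Ccnc* and *Usp45* on the other strand. *Hmgn3*, a nucleosome-binding protein, went from 0.119 to 0.310 CPM to 6.19 to 10.4 CPM (5.34, standard error 0.39). *Fam124a* overlaps *Gm4131* on the other strand, and *Hmgn3* overlaps *Gm2065* and *Gm29054*. All 3 *Dicer* SOM/SOM samples took part in each of these rises. In ΔMT/ΔMT oocytes *Fam124a* and *Bfsp1* were at means of 0.0480 and 0.166 CPM, and *Tstd3* and *Hmgn3* at 6.14 and 7.08 CPM. Both *Fam124a* and *Bfsp1* had too few counts for testing in the paired-end run, which also holds *Dicer* SOM/SOM oocytes.

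Some other rises at this level differed among the *Dicer* SOM/SOM samples. *Pnpla3*, a lipid droplet hydrolase, was at 100.5 and 112 CPM in *Dicer* SOM/SOM replicates 1 and 2 but at 3.77 CPM in replicate 3, against 0.551 to 1.03 CPM in wild type. *Nfam1*, an immune receptor adaptor, was at 13.6, 14.7 and 1.02 CPM against 0 to 0.396 CPM. The reverse held for *Defa29*, a defensin, at 34.2 CPM in replicate 3 and 0.414 and 0.503 CPM in the others. *Inpp4b*, an inositol phosphatase, was at 7.20, 0.0786 and 13.2 CPM against at most 0.0689 CPM in wild type. *Pknox2*, a homeodomain factor, was high in all 3 *Dicer* SOM/SOM samples, at 16.8, 12.6 and 24.2 CPM, against at most 0.115 CPM in wild type. In the paired-end run it was not called (log2 fold change −5.32, adjusted p = 0.239), with controls that ranged from 0.0278 to 34.3 CPM and mutants at 0.173 and 0.244 CPM.

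The largest falls at this level among genes with such symbols, besides *Dicer1*, were those of *Olfr1300-ps1*, an olfactory receptor pseudogene (log2 fold change −4.50), and *Cobl*, the actin nucleator cordon-bleu, which went from 31.0, 26.4 and 22.4 CPM in wild type to 2.48, 0.927 and 2.61 CPM (−3.87, standard error 0.44, adjusted p = 9.40e-05). *Olfr214*, an olfactory receptor, fell by 3.79. *Rbm47*, an RNA-binding protein, went from 19.8 to 20.2 CPM to 2.63, 1.35 and 0.726 CPM (−3.49, standard error 0.32). *Krt12*, a keratin known from the cornea, went from 14.3 to 16.7 CPM to 1.31 to 1.72 CPM (−3.41, standard error 0.18). The genotypes were apart in each case, as the choice of genes without overlap required. *Slco4c1*, an organic anion transporter, *Tnfrsf21*, death receptor 6, *Tmem260* and *Zfp385b* fell by 3.22 to 3.34 on the log2 scale. *Rbm47* overlaps *Gm26725* and *Krt12* overlaps *A830036E02Rik* on the other strand, and counting ignored strand.

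Genes with predicted names were not among those chosen by rule, but 2 were singled out after their values were seen. *Gm15915* on chromosome 10 was at 6.57, 6.95 and 7.05 CPM in wild type and at 336, 342 and 443 CPM in *Dicer* SOM/SOM (log2 fold change 5.77, standard error 0.19, adjusted p = 6.85e-08), and in the paired-end run it changed by 5.55. *C130026I21Rik* on chromosome 1, a relative of *Sp140* that shares reads with it, went from 16.4 to 23.5 CPM to 329 to 349.7 CPM (4.05, standard error 0.15). *Sp110* of the same family went from 123 to 140.0 CPM to 559.6 to 629.8 CPM (2.15, standard error 0.09).

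The paired-end run allowed the same *Dicer* genotype, on a *Mili* DAH/WT background, to be compared with other controls. Its RNAi mutants (*Dicer* SOM/SOM, *Mili* DAH/WT, n = 2, 13 and 17 weeks old) were set against *Dicer* SOM/WT, *Mili* DAH/WT controls (n = 4, 10 to 38 weeks old), with 10.7% of its 20989 tested genes called, 7.07% higher and 3.64% lower. It shares no sample with the single-end run, but differs in read type, sequencing instrument, *Mili* genotype of mutants and controls, and *Dicer* genotype of the controls. Of the 2990 genes called higher in the single-end run and tested in both, 1216 (40.7%) were called higher in the paired-end run, which is 83.6% of its own higher calls. Of 3205 called lower, 631 (19.7%) were called lower, which is 82.9% of its lower calls. 1 gene was called in opposite directions. The sign was the same for 92.2% of the genes called in the single-end run and for 73.3% of all 20089 genes tested in both, and across these genes, which are not independent replicates, Pearson's r of the log2 fold changes was 0.64.

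The named largest changes were mostly seen again, except among the rises chosen at 5 CPM. Of the 39 genes chosen by rule for the largest rises and falls at both levels, 36 were tested in the paired-end run, 34 had the same sign and 31 were called, all in the same direction. Among them were *Saxo1* (log2 fold change 4.09), *Zfp473* (3.44), *Rangap1* (3.04), *Sp140* (2.94), *Lcp1* (2.88), *Pla1a* (2.88), *Tstd3* (4.93), *Cux1* (−1.95), *Cobl* (−2.52) and *Dicer1* (−3.46). Of the 10 largest rises chosen at the level of at least 5 CPM, only *Tstd3*, *Saxo1os* and *Hmgn3* were called there. *Pknox2* (log2 fold change −5.32), *Inpp4b* (−2.87), *Pnpla3* (0.48) and *Nfam1* (0.68) were not called. Counts of *Fam124a*, *Bfsp1* and *Defa29* were too low to be tested in that run, so their rises were not seen again there. A test of the difference between the runs in a joint model, added after the data were seen, called 6 of 20089 genes (0.0299%), and 1646 had an unadjusted p under 0.05. The 6 were *Rbbp9*, *Gm6083*, *Ggct*, *Gdpd3* and *Pnpla3*, with more of a rise in the single-end run, and *Tnfrsf21*, with more of a fall.

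**Figure D3:**
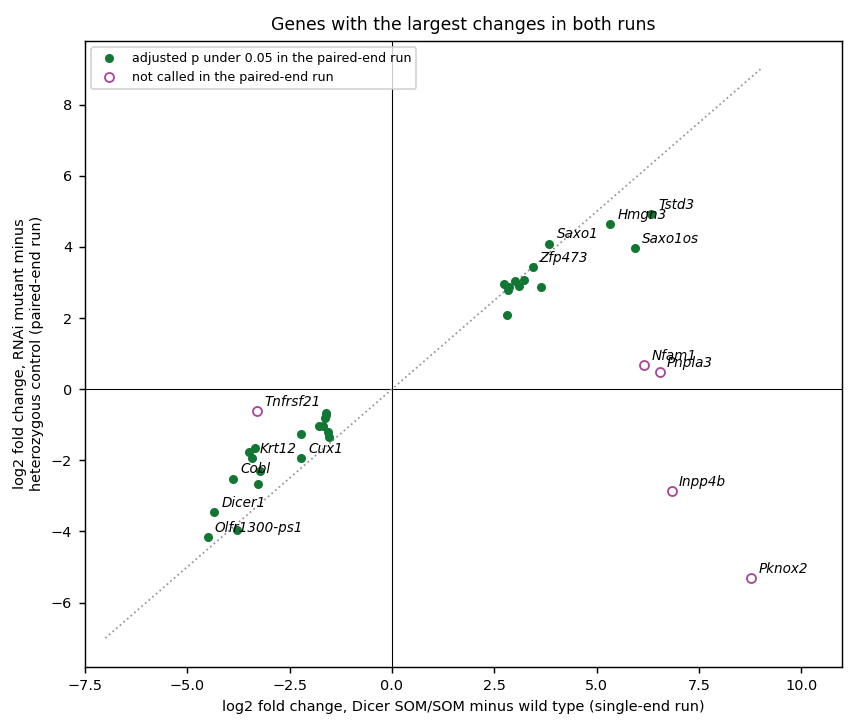
Log2 fold changes of the genes with the largest rises and falls in the single-end run, predicted and RIKEN names left out (*Dicer* SOM/SOM minus wild type) beside those in the paired-end run (RNAi mutant minus heterozygous control). Of the 36 genes tested in both, 34 lie on the same side of 0, filled points mark the 31 called in the paired-end run, and *Pknox2* and *Inpp4b* are the exceptions.

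Potential siRNA targets rose more often than they fell. For this and the following lists, the shares over all tested genes were 14.5% higher and 14.2% lower. The study chose these genes from small RNA data of other studies. Of 196 tested, 85 were called higher and 15 lower, and the median log2 fold change was 0.28 against 0.02 over all tested genes. Without replicate 3, 95 were higher and 16 lower, and the paired-end run called 62 higher and 3 lower. With a minimum of 1 log2 unit, 44 were higher. Their summed level was 23074, 23302 and 22219 CPM in wild type and 30709, 31567 and 28745 CPM in *Dicer* SOM/SOM, without overlap. *Uchl4*, a ubiquitin hydrolase gene and the largest rise of the list, was at 8.02, 7.55 and 7.02 CPM in wild type and 71.6, 72.9 and 51.1 CPM in *Dicer* SOM/SOM. Members that fell included *Gfod1*, an oxidoreductase (−1.26), and *Matr3*, a nuclear matrix protein that binds RNA (−0.90).

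**Figure D4:**
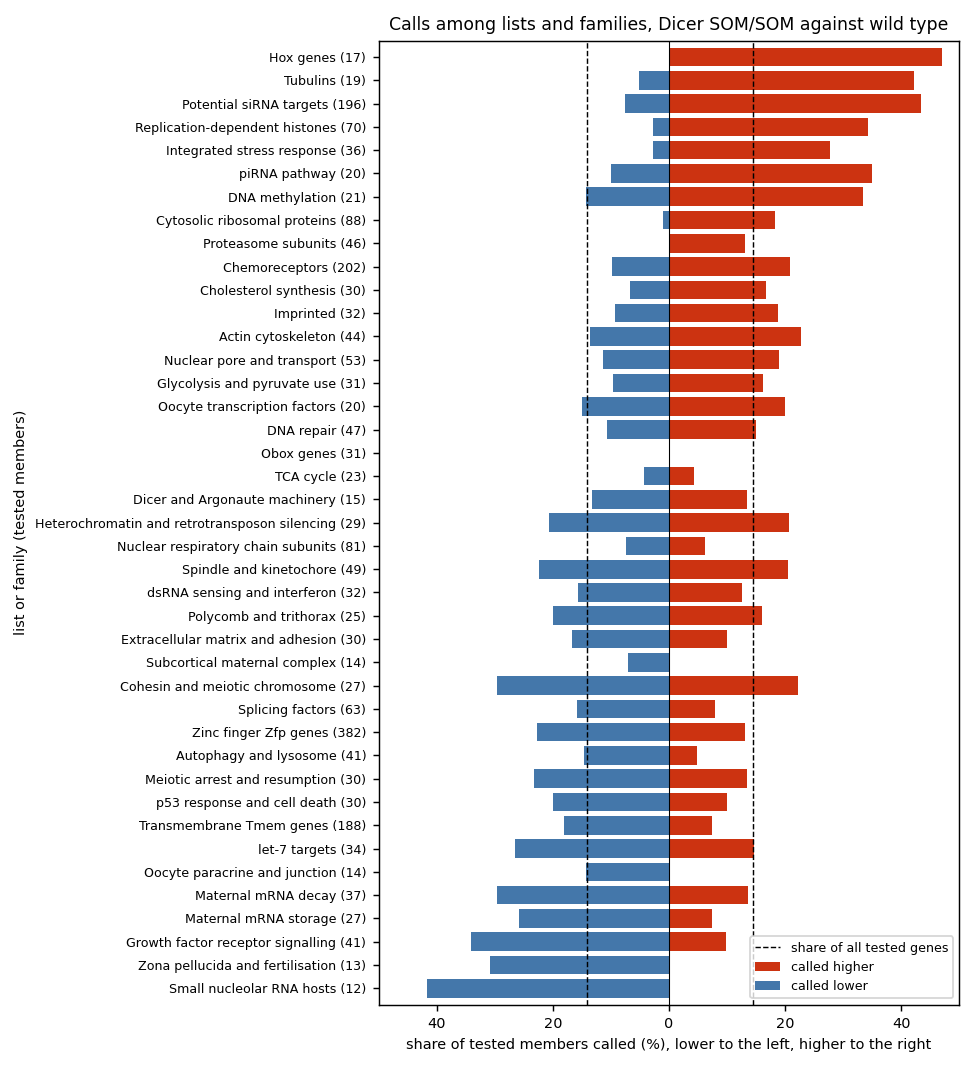
Share of tested members called higher (right) and lower (left) in *Dicer* SOM/SOM for gene lists and families, with the shares over all tested genes (14.5% higher, 14.2% lower) as dashed lines. Potential siRNA targets, tubulins, Hox genes and replication-dependent histones lie toward the higher side, and growth factor receptor signalling and small nucleolar RNA hosts toward the lower side.

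Tubulins, the subunits of microtubules, were called higher more often than lower. Of 19 tested, 8 were called higher (42.1%) and 1 lower (5.26%), against 14.5 and 14.2% over all tested genes. Their summed level was 2247 to 2337 CPM in wild type and 2835 to 3198 CPM in *Dicer* SOM/SOM. *Tuba1a* went from 33.8, 26.7 and 33.8 CPM to 100.3, 84.7 and 108 CPM (log2 fold change 1.63, standard error 0.12, adjusted p = 5.50e-06), and *Tuba1c* from 82.9 to 109.6 CPM to 267 to 309 CPM (1.55, standard error 0.11). *Tuba1c* and *Tuba1b* are close copies and share reads. The fall of *Tubd1*, delta-tubulin, by 0.61 lost its call without wild-type replicate 3 (adjusted p = 0.117). Spindle and kinetochore genes were divided, with 10 higher and 11 lower of 49, led by *Rangap1* and by *Kifc1*, a minus-end directed kinesin that focuses spindle poles (1.64, standard error 0.16). *Kifc1* was at 21.4 to 25.3 CPM in wild type and at 81.2, 78.0 and 52.1 CPM in *Dicer* SOM/SOM. On the other side, *Aurkc*, the meiotic Aurora kinase, changed by −0.74 (adjusted p = 0.00372).

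Genes of the meiotic chromosome axis and cohesin were divided as well, with 6 higher and 8 lower of 27. *Sycp3*, an axis protein of the synaptonemal complex, went from 10.8, 12.3 and 8.55 CPM to 37.2, 32.0 and 50.8 CPM (1.91, standard error 0.21), and overlaps *Chpt1* on the other strand. *Dmc1*, the meiotic recombinase, went from 2.0 to 3.76 CPM to 0.707 to 1.16 CPM (−1.70, standard error 0.29), and neither gene was called in the paired-end run, where *Sycp3* changed by 0.71 (adjusted p = 0.0512). Of 30 genes that hold or release meiotic arrest, 4 were higher (13.3%) and 7 lower (23.3%). The counts were 2 and 6 without replicate 3, and 1 and 2 in the fit of the 2 genotypes alone. *Fbxo5*, the inhibitor of the anaphase-promoting complex also called Emi1, changed by 0.64 and *Mapk3*, a MAP kinase, by −0.59.

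The integrated stress response had 10 genes called higher (27.8%) and 1 lower (2.78%) of 36, although the median of the list was −0.01. *Fgf21*, a secreted factor induced by ATF4, had at most 0.0327 CPM in wild type and 0.683, 1.82 and 6.82 CPM in *Dicer* SOM/SOM, at least 60.1-fold above the floor. *Asns*, asparagine synthetase, went from 0.729, 1.69 and 2.29 CPM to 4.88, 13.6 and 16.7 CPM (2.85, standard error 0.50, adjusted p = 0.00159). Replicate 1 was the lowest of the mutant samples in both genes. The fall of *Ppp1r15b* (−0.35) lost its call without wild-type replicate 3 (adjusted p = 0.0577). In the paired-end run 5 of the 36 were called higher and 1 lower.

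Of 41 growth factor receptors and their signalling proteins, 14 were called lower (34.1%, against 14.2% over all tested genes), 4 higher and 23 neither, with a median log2 fold change of −0.43, and their summed level went from 5092 to 5321 CPM to 3819 to 4449 CPM. *Epha5*, an ephrin receptor, went from 2.59 to 4.22 CPM to 0.352 to 1.23 CPM (−2.08, standard error 0.42). *Kdr*, the receptor VEGFR2, went from 3.51 to 4.35 CPM to 0.414 to 1.48 CPM (−1.95, standard error 0.51) and is also a marker of endothelium, whose list had summed levels of 91.8 to 95.5 CPM in wild type and 76.5 to 77.5 CPM in *Dicer* SOM/SOM. *Kit*, the receptor through which granulosa cells signal to the oocyte, was at 469, 471 and 475 CPM in wild type and at 276, 315 and 246 CPM in *Dicer* SOM/SOM (log2 fold change −0.76, standard error 0.10, adjusted p = 3.00e-04). *Igf1r*, the IGF1 receptor, changed by −0.87 (standard error 0.11). *Ntrk2*, the BDNF receptor (1.53, adjusted p = 0.0662 after thinning to the smallest sample), and *Smad5*, a transducer of BMP signals (1.16), rose. A fit of wild type and *Dicer* SOM/SOM alone gave 8 lower and 2 higher, and the paired-end run called 8 of 40 lower.

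Of the genes that store maternal mRNA, 2 were higher and 7 lower of 27, and 4 and 7 without replicate 3. *Igf2bp1*, an mRNA-binding protein, stood apart from the rest, at 1.22, 1.17 and 0.769 CPM in wild type and at 24.0, 18.9 and 24.2 CPM in *Dicer* SOM/SOM (log2 fold change 4.40, standard error 0.27, adjusted p = 1.68e-06). *Msi2*, a Musashi translational regulator, went from 54.4, 43.5 and 48.1 CPM to 15.4, 16.7 and 22.3 CPM (−1.46, standard error 0.18). Of 37 genes for mRNA decay, 5 were higher and 11 lower. The exosome subunits *Exosc9* (1.11) and *Exosc2* (1.01) rose, whereas *Cnot6* (−0.76), a deadenylase, and *Cnot1* (−0.56), the scaffold of the CCR4-NOT complex, fell. *Exosc9* overlaps *Ccna2* on the other strand. Of 13 genes listed with the zona pellucida and fertilization, 4 were lower, among them *Sebox*, a homeobox gene rather than a zona gene, at −0.70. Of 14 genes listed with the subcortical maternal complex, only *Zar1*, an RNA-binding maternal factor, was called by the quasi-likelihood test, at −0.46. *Zar1* was not called in the fit of the 2 genotypes alone (adjusted p = 0.0560). None of 31 *Obox* homeobox genes was called by the quasi-likelihood test, where an unadjusted p under 0.05 was reached by 4 in the higher and 2 in the lower direction, while DESeq2 called 1 lower and other alternatives up to 3 higher.

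Regulators of chromatin included some of the larger changes. *Kmt2a*, a histone H3K4 methyltransferase, was at 5.91, 3.62 and 2.22 CPM in wild type and at 56.2, 42.9 and 117 CPM in *Dicer* SOM/SOM (4.17, standard error 0.45), but in the paired-end run the change was 1.44 (adjusted p = 0.356). *Hdac1*, a histone deacetylase that shares reads with *Gm10093*, was at 5.01 to 5.74 CPM and at 31.4, 34.5 and 34.5 CPM (2.64, standard error 0.13), with 2.49 in the paired-end run. *Ehmt2*, the H3K9 methyltransferase G9a, changed by 2.68, with 0.37 in the paired-end run (adjusted p = 0.615). The polycomb genes *Suz12* (−0.64) and *Rnf2* (−0.62) fell. Of 21 genes for DNA methylation, 7 were higher and 3 lower. *Dnmt3c*, a methyltransferase known from male germ cells, changed by 1.36, and *Tet1* and *Tet3*, which oxidize 5-methylcytosine, by −0.90 and −0.48. *Tet3* was at 3556 to 4448 CPM in wild type and 2838 to 2975 CPM in *Dicer* SOM/SOM.

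Genes of the piRNA pathway, the other small RNA pathway of the germ line, were called higher in 7 (35.0%) and lower in 2 (10.0%) of 20 cases. *Mael*, a piRNA biogenesis factor, went from 36.3, 44.8 and 44.0 CPM to 71.5, 81.7 and 104 CPM (1.03, standard error 0.14, adjusted p = 3.00e-04), and *Piwil2*, which encodes MILI, from 3.17 to 5.99 CPM to 10.2 to 12 CPM (1.25, standard error 0.27). *Tdrd5* changed by −0.37, a call lost in the fit of the 2 genotypes alone (adjusted p = 0.0681). The paired-end run called 1 of these genes.

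Sensors of double-stranded RNA and interferon-induced genes had 4 higher and 5 lower of 32. *Oas3*, an oligoadenylate synthetase, went from 12.4, 10.5 and 13.3 CPM to 39.1, 44.6 and 52.8 CPM (log2 fold change 1.90, standard error 0.17, adjusted p = 1.58e-05). *Ddx58*, which encodes the sensor RIG-I and was named after its values were seen, moved the other way, from 24.9 to 28.6 CPM to 10.4 to 16.0 CPM (−1.01, standard error 0.14). *Gbp8*, a guanylate-binding protein that overlaps *Gbp4* and *Gbp9* on the same strand, fell by 4.52, from 1.05 to 1.35 CPM to at most 0.103 CPM. *H2-D1*, a classical class I histocompatibility gene, went from 0.245 to 0.565 CPM to 1.66, 3.03 and 4.93 CPM (2.87, standard error 0.46).

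Genes of the p53 response and cell death had 3 higher and 6 lower of 30. *Pmaip1*, which encodes the apoptosis inducer Noxa, went from 0.238 to 0.311 CPM to 2.05, 4.10 and 3.77 CPM (3.62, standard error 0.47), while *Apaf1*, the scaffold of the apoptosome, changed by −1.14. Of 47 genes for DNA repair, 7 were higher and 5 lower. *Exo1*, an exonuclease of mismatch repair and recombination, was at 164, 162 and 160.3 CPM in wild type and at 518, 581 and 429 CPM in *Dicer* SOM/SOM (log2 fold change 1.65, standard error 0.10, adjusted p = 1.68e-06). *Lig4*, the ligase of nonhomologous end joining, went from 86.8 to 95.9 CPM to 50.01, 33.4 and 26.3 CPM (−1.30, standard error 0.19). Of 20 transcription factors of the oocyte, 4 were higher and 3 lower, among them *Stat3* (1.54), a signal transducer of cytokines, and *Foxo3* (−0.58), which restrains primordial follicle activation.

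Lists for energy metabolism differed from each other in the share called. Glycolysis and pyruvate use had 5 higher and 3 lower of 31, led by *Gapdh*, the glycolytic enzyme, which went from 3.40 to 4.22 CPM to 22.4, 18.1 and 37.3 CPM (log2 fold change 2.75, standard error 0.23). The tricarboxylic acid cycle had 1 higher and 1 lower of 23, and cholesterol synthesis 5 and 2 of 30. Of 81 nuclear genes of the respiratory chain, 6.17% (5 genes) were higher and 7.41% (6 genes) lower, below the shares over all tested genes (14.5 and 14.2%), and without replicate 3 the count was 2 higher and 10 lower. Of 44 actin cytoskeleton genes 10 were higher and 6 lower, and the cytoplasmic actin *Actg1* (1.76) and the smooth muscle actin *Actg2* (−3.61) moved in opposite directions. *Actg2* was at 3.52 to 4.80 CPM in wild type and at 0.145 to 0.373 CPM in *Dicer* SOM/SOM.

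Histone and Hox genes were called higher more often than lower. Of 70 replication-dependent histone genes 24 were called higher and 2 lower, with a median of 0.74, and their summed level was 329 to 379 CPM in wild type and 445, 510 and 949 CPM in *Dicer* SOM/SOM replicates 1 to 3. Without replicate 3 the count was 15 higher and 1 lower, without single wild-type replicates it was 6 to 9 higher, and the fit of the 2 genotypes alone called 7 higher. *Hist1h1e*, a linker histone, went from 5.49, 4.26 and 3.61 CPM to 25.4, 35.5 and 86.8 CPM (3.42, standard error 0.41). Of 17 Hox genes, which pattern the body axis, 8 were higher, with 7 higher and 1 lower without replicate 3 and 5 higher without wild-type replicate 3. *Hoxd1* went from 0.0981 to 0.134 CPM to 0.290, 1.26 and 3.05 CPM (3.48, standard error 0.69). Of 88 cytosolic ribosomal protein genes 16 were higher (18.2%, against 14.5% over all genes) and 1 lower, with 7 higher in the fit of the 2 genotypes alone, led by *Rps23* (2.62, standard error 0.17), a potential siRNA target that shares reads with 5 copies, among them *Rps23-ps1* (2.68). Of 46 proteasome subunits 6 were higher (13.0%).

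**Figure D5:**
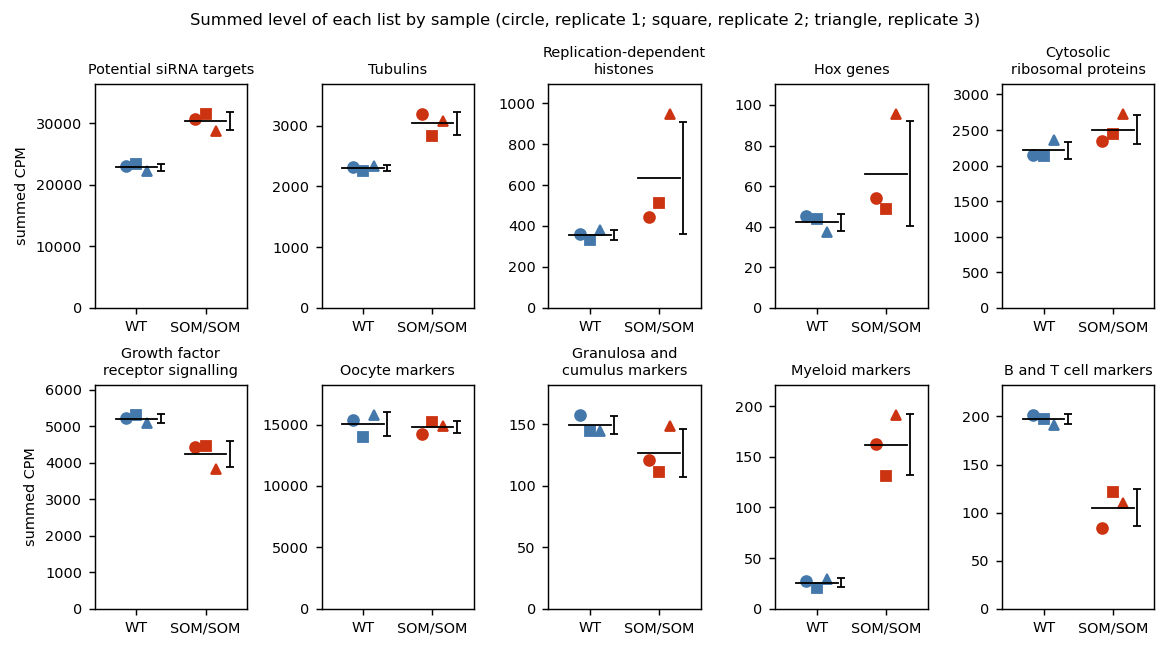
Summed CPM of gene lists (y axis) in each sample, by genotype, with the mean as a line and the SD (n = 3) as a bar. Replication-dependent histones lie at 329 to 379 CPM in wild type and reach 949 CPM in *Dicer* SOM/SOM replicate 3, the library with the lowest depth, while the oocyte markers overlap between genotypes at 13980 to 15817 CPM.

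Among gene classes of the annotation, protein-coding genes had 2281 higher and 2506 lower of 15392, but 2579 and 2153 when scaled by library totals alone, 1636 and 1630 in the fit of the 2 genotypes alone and 1047 and 612 in the paired-end run, so their balance turned with the scaling. Processed pseudogenes had 470 higher (14.1%) and 176 lower (5.27%) of 3341, against 14.5 and 14.2% over all tested genes. The share called higher was thus near that of all genes, and only the share called lower was apart. That share also moved with level, at 4.82% of all genes below a mean of 1 CPM, and level was not separated from class. Part of the reads of processed pseudogenes is shared with the parent genes. Long intergenic noncoding RNAs had 210 higher and 248 lower of 1331, and 225 in each direction with library totals. Precursors annotated as microRNAs had 35 higher and 3 lower of 140, 17 higher and 2 lower without replicate 3, and 11 higher and 1 lower in the fit of the 2 genotypes alone. Their summed level was 1516 to 1716 CPM in wild type and 3082, 1640 and 3979 CPM in *Dicer* SOM/SOM replicates 1 to 3, so replicate 2 lay within the wild-type range, and *Gm42418* was high in the same replicates 1 and 3. Its part in these counts was not tested. These loci lie mostly inside other transcripts, so their counts are not mature microRNAs. Hosts of small nucleolar RNAs had 5 lower of 12, among them *Snhg1* (−1.73, standard error 0.16), which went from 13.4 to 16.6 CPM to 3.64 to 5.28 CPM, and *Snhg18* (−1.60). Of 382 zinc finger genes of the *Zfp* series 50 were higher and 87 lower, and of 188 *Tmem* genes 14 were higher and 34 lower, with *Tmem47* falling from 54.6 to 69.0 CPM to 5.22 to 11.6 CPM (−3.08, standard error 0.23). Of 202 chemoreceptor genes 42 were higher (20.8%) and 20 lower (9.90%). *Tas1r2*, a subunit of the sweet taste receptor, rose by 3.89.

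Protein-coding genes called lower had longer transcripts than the rest. Their median exon length was 3949.5 bases against 3152.5 over all tested genes, their median 3′ untranslated region (UTR) 1235 against 875 bases and their median span 38.6 against 23.1 kb. Those called higher had 3065 bases, 834 bases and 20.3 kb. In the quartile of genes with the longest exon length, 23.3% were called lower, and in the quartile with the shortest, 9.36%, while 14.3 and 15.8% were called higher. By GC content, 22.4% of the lowest quartile and 8.24% of the highest were called lower. Median levels in wild type were 34.2 CPM for genes called lower and 9.55 CPM over all, so level, length and GC content moved with each other, and their parts were not separated.

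Classic targets of let-7, a microRNA family that Dicer matures, had 5 genes higher and 9 lower of 34, *Dicer1* itself being among those lower, with a median of −0.19. *Igf2bp1* and the chromatin protein *Hmga2* (39.4 to 45.0 CPM in wild type and 105 to 114 CPM in *Dicer* SOM/SOM, log2 fold change 1.36, standard error 0.09) were the largest rises, and *Arid3b*, a DNA-binding protein, fell by 0.96. The 3′ UTRs of all tested genes were then searched for the reverse complement of the seed (bases 2 to 8, in capitals) of microRNA families, with mature sequences from RefSeq (GRCm38.p6).
let-7a-5p: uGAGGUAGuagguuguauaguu
miR-30a-5p: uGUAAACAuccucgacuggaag
miR-17-5p: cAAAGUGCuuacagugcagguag
miR-16-5p: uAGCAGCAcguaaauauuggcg
miR-22-3p: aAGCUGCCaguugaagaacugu
miR-103-3p: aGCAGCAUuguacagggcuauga

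A site for let-7 (CTACCTC) lay in the 3′ UTR of 1305 genes, 8.80% of all 3′ UTRs, of which 15.2% were called higher and 18.8% lower. For miR-30 (TGTTTAC) it was 13.3% higher and 21.7% lower of 2083 genes, for miR-17 (GCACTTT) 13.8 and 19.1% of 1867, for miR-16 (TGCTGCT) 14 and 18.7% of 3147, for miR-22 (GGCAGCT) 13.5 and 16.4% of 1998 and for miR-103 (ATGCTGC) 13.8 and 20.5% of 1647. Over all 14837 genes with a 3′ UTR the shares were 14.7 and 16.3%, and over those with a 3′ UTR longer than the median, which hold sites more often, 14.2 and 19.9%. Over the 6 seeds, the share called higher ran from 13.3 to 15.2%. A match is a description of letters and not a site shown to be bound.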

How the data were processed

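RNA-seq was done on pooled GV oocytes of 22 samples, and the 3 wild-type and 3 *Dicer* SOM/SOM samples of the single-end run were compared. Conditions were taken from the sample labels. According to the methods, the authors mapped reads with STAR 2.5.3a to the mouse genome (mm10), kept reads with several places, and counted them with featureCounts on GENCODE M15 genes without regard to strand, with fractions for reads shared between places or genes. The deposited values are expected counts, raw and not normalized, so copies and overlapping genes share reads and may dilute or mirror each other's changes. Overlap with an exon of a gene on the other strand held for 25.2% of called and 26.3% of tested genes. Not every such case is named in the text.

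Expected counts were rounded to whole numbers. Genes were filtered with filterByExpr (minimum count 10, minimum total 15), scaled with TMM factors and tested by quasi-likelihood in edgeR 4.0.16 under R 4.3.3, with p-values adjusted over all tested genes by Benjamini-Hochberg (0.05). Wild type, *Dicer* ΔMT/ΔMT (n = 4) and *Dicer* SOM/SOM were fitted together, 10 samples that share 1 estimate of spread, and the contrast was *Dicer* SOM/SOM minus wild type. CPM were computed with the TMM factors, and a floor of 3 counts per library marks the limit of detection. Floors cover counting error only, because PCR duplicates were not marked by molecular identifiers. The 11 paired-end samples were fitted separately.

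Gene lists, families and annotation classes were described by counts and medians beside those of all tested genes. The lists, families, markers and the rule for naming genes were chosen with earlier results of these data known. Named genes are *Dicer1*, the 10 largest rises and falls among called genes without overlap, with a symbol and at least 5 or at least 100 CPM in 1 genotype, and up to 2 rises and 2 falls per list with at least 1 CPM. Copies were genes whose transcripts matched 50% or more of a transcript of the named gene at 95% identity or more (minimap2 2.31). Overlaps, transcript lengths and biotypes came from GENCODE M21, and microRNA sequences from RefSeq. The script was tested on simulated data first. Alternatives were DESeq2 1.42.0, other scalings, filters and thresholds, thinning to the smallest sample, a replicate block, a fit of both genotypes alone, younger paired-end animals and each sample left out in turn. Small RNAs, repeats and isoforms were not analysed here.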

Additional observations from a re-analysis of the deposited data

Results flagged for a closer look

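*Pnpla3* and *Tnfrsf21* are singled out because their changes differed between the single-end and the paired-end run by a test of the difference itself. For *Pnpla3*, the log2 fold change in the single-end run exceeded that in the paired-end run by 6.03, and for *Tnfrsf21* it was lower by a difference of −2.65. The *Pnpla3* rise came from *Dicer* SOM/SOM replicates 1 and 2 (100.5 and 112 CPM), with 3.77 CPM in replicate 3. *Tnfrsf21* was at 22.5, 29.3 and 18.9 CPM in wild type and at 3.04, 1.95 and 2.03 CPM in *Dicer* SOM/SOM, whereas the paired-end controls lay between 5.40 and 8.30 CPM. Controls, read type, sequencing instrument and *Mili* genotype differ between the runs and cannot be told apart. These differences come from the joint model over both runs, which was added after the data were seen and called 6 genes in all.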

How the results depend on the processing

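Against 3351 genes called higher and 3276 lower, other settings kept the counts within 1.5 times, except that a filter at 5 CPM gave 2219 higher and 2153 lower, a minimum of 1 log2 unit 2154 and 1166, and a fit of wild type and *Dicer* SOM/SOM alone 2138 lower. Leaving out single samples gave 2587 to 3233 higher and 2418 to 3183 lower. Among potential siRNA targets, 85 were called higher, 44 with a minimum of 1 log2 unit and 72 to 95 without single samples. Calls over all lists and families, 3042 in all, numbered 1589 with the filter at 5 CPM, 1820 after thinning to the smallest sample and 1817 with a minimum of 1 log2 unit, and calls among cell type markers went from 12 to 7 with the filter at 5 CPM. The 1847 calls shared with the paired-end run were 1159 when only its animals under 20 weeks were used. By construction these settings test fewer genes, use fewer samples or fewer counts, or ask for a minimum change.

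Replicate numbers did not pair the samples, since deviations of samples with the same number correlated at −0.0035, 0.0174 and −0.0027. A replicate block gave 2934 genes higher and 2964 lower, and 80 siRNA targets higher.

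*Dicer1* kept its direction and its call under every alternative run. Of the other 280 named genes, 69 lost the call at an adjusted p under 0.05 in at least 1 alternative fit that tested them, 17 of them without *Dicer* SOM/SOM replicate 3, 42 in the fit of both genotypes alone, 22 with the replicate block and 24 after thinning, and none reversed. Genes that a stricter filter or thinning left untested are not in this count, and with *Dicer1* 226 of 281 were tested and called after thinning, 194 with the filter at 5 CPM and 198 with a minimum of 1 log2 unit. The depth of replicate 3 limits what can be said of genes near or below 0.435 CPM.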

Other observations

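Some families outside the groups above held changes of similar size. Of 313 solute carriers, 53 were called higher and 47 lower. *Slc16a6*, a monocarboxylate transporter family member, went from 1.19 to 1.59 CPM in wild type to 6.29, 19.3 and 37.4 CPM in *Dicer* SOM/SOM (log2 fold change 3.85, standard error 0.53), so that all 3 mutant samples were higher and replicate 3 most so. It overlaps *Amz2* and *Arsg* on the other strand, as *Slc22a3* does *Plg*, and counting ignored strand. Of 49 cytochrome P450 genes, 10 were higher (20.4%) and 8 lower (16.3%), and *Cyp1b1* went from 9.52 to 13.2 CPM to 0.994 to 2.32 CPM (−2.87, standard error 0.30). Of 32 imprinted genes, 6 were higher and 3 lower, with *Sgce* at 1.43 and *Slc22a3*, an organic cation transporter, at −1.24. *Oog4*, one of 4 tested oogenesins, was at 608, 546 and 628 CPM in wild type and at 1133, 1583 and 976 CPM in *Dicer* SOM/SOM (1.05, standard error 0.15), while *Oog2* changed by −0.48.

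By chromosome, 16.8% of the 986 tested genes on the X chromosome were called higher and 10.8% lower, the highest and the lowest of these shares over the 20 chromosomes, while on chromosome 18 10.7% of 478 were higher and 19.9% lower. Over all tested genes these shares were 14.5 and 14.2%. Of 53 genes for the nuclear pore and transport, 10 were higher (18.9%) and 6 lower (11.3%), and of 63 splicing factors 5 (7.94%) and 10 (15.9%). Among the 6627 called genes, 736 had a level in *Dicer* SOM/SOM replicate 3 more than 2-fold from the mean of replicates 1 and 2, and 387 differed by more than 2-fold between replicates 1 and 2.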
